A study of Mus musculus with 2 samples.

Results

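The miR-103 and miR-107 genes of the mouse are Mir103-1, Mir103-2 and Mir107, and they lie in introns of Pank3, Pank2 and Pank1. They were found by matching the gene identifiers of the deposited tables to GENCODE M21 symbols, which gave 3 of the 2202 miRNA genes in the tables, 1 identifier for each. Small RNA below 30 nucleotides had been sequenced from left cerebral cortex. The donors were 2 females of the B6CASTF1/J hybrid, aged 2 months, whose name joins a C57BL line and the wild-derived line CAST. The genes were selected on values from these tables, namely Mir107's level and its difference between the mice, so those are given as a description. The libraries form 1 group with no treatment, genotype or age contrast, and are called animal 1 and animal 2 after their replicate numbers. The labels number the mice separately, but both carry a single donor identifier. Each mouse gave 1 library, so mouse and library preparation cannot be told apart as sources of a difference.

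Pantothenate kinases, encoded by the Pank genes, catalyse the first committed step of coenzyme A synthesis, and intronic miRNAs of this kind are commonly transcribed with their hosts. After processing, the guide strand sits in Argonaute and pairs with messenger RNAs through its seed, bases 2 to 8. miR-103 and miR-107 share a seed, and so share most predicted targets. In mice they are known for lowering insulin sensitivity through the caveolin gene Cav1, and in human cells for repressing DICER1. Lower miR-107 has been described in human Alzheimer disease cortex, with the protease gene BACE1 as a target.

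The mature 3p strands, the guide strands of the family, are shown because a single base decides which gene a read can be assigned to. Capitals mark the seed and position 22, counted from 1 at the 5′ end.
miR-103-3p, from Mir103-1 and Mir103-2: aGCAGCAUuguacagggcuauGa
miR-107-3p, from Mir107: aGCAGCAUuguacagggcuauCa

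The copies Mir103-1 and Mir103-2 yielded the same 23 bases, and miR-107-3p differed from them by the substitution G22C alone, at the penultimate base. All 3 strands held the seed gcagcau, and among RefSeq mature mouse miRNAs no gene outside these 3 did.

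The 5p strands, usually the passenger strands, differ at positions 1 and 16, which are in capitals.
miR-103-1-5p: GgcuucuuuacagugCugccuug
miR-103-2-5p: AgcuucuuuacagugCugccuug
miR-107-5p: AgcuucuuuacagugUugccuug

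Here every pair could be told apart. Mir103-1 and Mir103-2 differed by G1A, Mir103-2 and Mir107 by C16U, and Mir103-1 and Mir107 by both.

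The hairpins show what surrounds the mature strands, which are in capitals. All are from RefSeq on GRCm38.p6.
Mir103-1, chr11:35782396-35782481, plus strand: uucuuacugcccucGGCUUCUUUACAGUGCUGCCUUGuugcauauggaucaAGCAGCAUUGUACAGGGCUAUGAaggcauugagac
Mir103-2, chr2:131288052-131288137, plus strand: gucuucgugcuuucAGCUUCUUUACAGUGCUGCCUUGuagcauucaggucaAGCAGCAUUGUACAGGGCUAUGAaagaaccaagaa
Mir107, chr19:34820687-34820773, minus strand: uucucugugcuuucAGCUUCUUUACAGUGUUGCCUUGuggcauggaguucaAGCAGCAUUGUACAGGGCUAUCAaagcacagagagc

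The hairpins are 86, 86 and 87 bases long. Mir103-2 and Mir107 were the most alike over the whole hairpin, with 84.3% identity in a global alignment. Mir103-1 shared 80.9% with Mir103-2 and 81.1% with Mir107. The longest unbroken run shared by Mir103-1 and Mir103-2 was 27 bases, and each of them shared a run of 24 bases with Mir107.

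These sequences set what a short read can show. A 3p read that begins at the mature 5′ end and is 18 to 21 bases long fits all 3 hairpins. At 22 bases such a read from Mir107 fits Mir107 alone, whereas a read of either Mir103 copy fits both copies until it reaches 25 bases, past the 23 bases of the mature strand. A 5p read beginning at the mature end fits a single hairpin at every length tested, from 18 to 29 bases. The search covered RefSeq miRNA hairpins only, with no mismatches allowed. Of the 66 windows of 22 bases along the Mir107 hairpin, 61 occurred in no other hairpin, against 57 of 65 for Mir103-1 and 55 of 65 for Mir103-2.

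**Figure D1:**
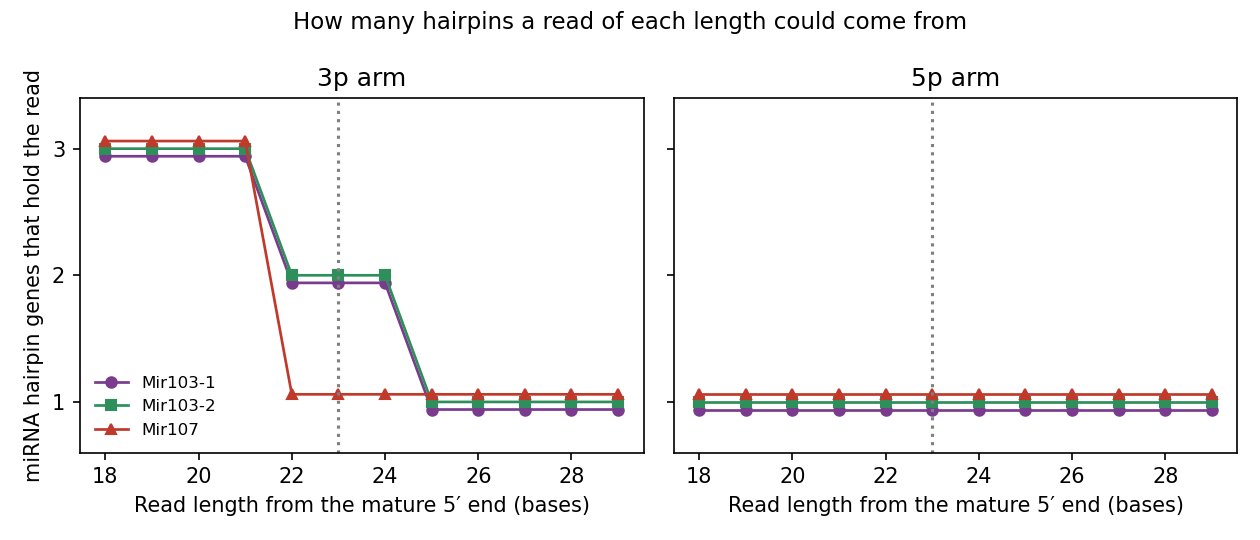
Number of RefSeq miRNA hairpin genes (y axis) that hold a read starting at the mature 5′ end, by read length in bases (x axis), for the 3p arm (left) and the 5p arm (right); lines are offset slightly so that they can be seen, and the dotted line marks 23 bases. On the 3p arm Mir107 reads fit 1 hairpin from 22 bases on, and reads of the Mir103 copies fit 1 hairpin from 25 bases on.

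The tables are of reads counted per gene, so they do not say which arm or which length a read had. Reads with several mapping places are listed apart, 5063531 for animal 1 and 2585568 for animal 2, which exceeded the 4415759 and 2279562 reads counted at all miRNA genes. The sources used here do not say whether reads fitting several hairpins were left out of the gene counts. Counts at the 3 genes, and sums over the family, are therefore uncertain as levels of the mature miRNA.

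Mir107 held nearly all of the family's counts in both animals. Mir107 (ENSMUSG00000065594.1) had 3523 counts in animal 1 and 5957 in animal 2. As CPM, the count scaled to a total of 1000000 at miRNA genes, this was 798 in animal 1 (95% interval 772 to 825, exact Clopper-Pearson) and 2613 in animal 2 (2547 to 2680). The gene stood at place 100 in animal 1 and place 57 in animal 2 when all genes were ranked by count, so it was among the better represented cortical miRNAs in each. Its mean was 1706 ± 1284 CPM (SD, n = 2), an SD that reflects how far apart the animals lay. The intervals allow for counting error alone, since reads amplified by PCR and lacking molecular identifiers are not independent.

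Mir103-2 was sparsely counted. Mir103-2 (ENSMUSG00000065563.1) had 32 counts in animal 1 and 45 in animal 2, or 7.25 CPM (4.96 to 10.2) and 19.7 CPM (14.4 to 26.4). With a mean of 13.5 ± 8.83 CPM (SD, n = 2) it passed the detection limit of 2 CPM in both libraries.

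Mir103-1 was at the edge of measurement. Mir103-1 (ENSMUSG00000065553.1) had 1 count in animal 1 and 10 in animal 2, or 0.226 CPM (0.00573 to 1.26) and 4.39 CPM (2.10 to 8.07). The floor, 3 counts or the upper limit compatible with a count of 0, was 0.679 CPM for animal 1 and 1.32 CPM for animal 2. Mir103-1 thus fell below the floor in animal 1 and failed the detection limit there, so 2 of the 3 members were detected in both animals.

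In each animal the order of counted levels was Mir107, Mir103-2, Mir103-1, and the counting intervals of neighbours did not overlap within an animal. The values of Mir103-1 and Mir103-2 did not overlap between animals either, but their means ± SD did, at 2.31 ± 2.94 CPM for Mir103-1 and 13.5 ± 8.83 CPM for Mir103-2 (n = 2 each). The hairpins differ in length by a single base, and any part of length in this order was not tested. The order is one of assigned reads.

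**Figure D2:**
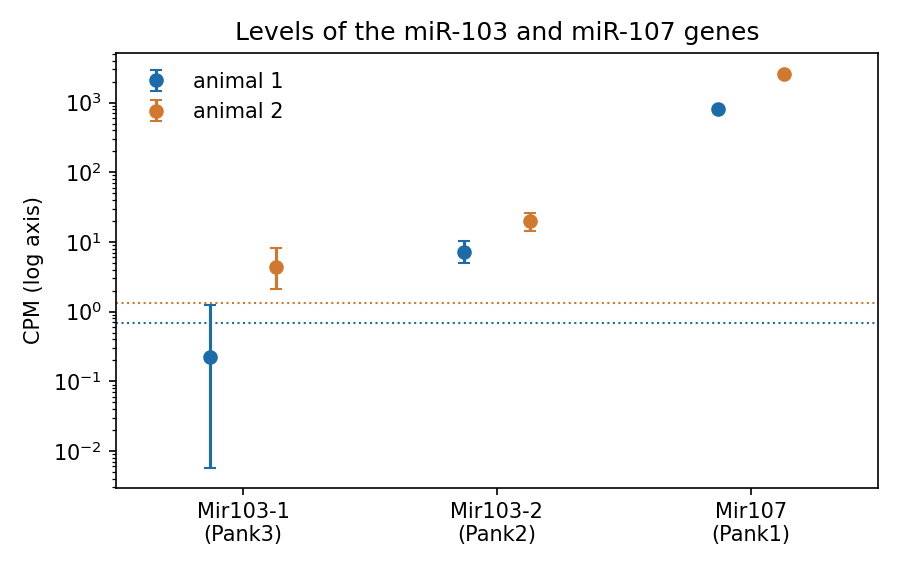
Level in CPM (y axis, log scale) of each miR-103 and miR-107 gene, with its host in brackets, in animal 1 and animal 2; bars are exact Clopper-Pearson 95% intervals and dotted lines the floor of 3 counts in each library. Mir107 lies at 798 and 2613 CPM, Mir103-2 between 7.25 and 19.7 CPM, and Mir103-1 below the floor in animal 1.

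The share of the family's counts held by Mir107 was close to equal in both animals. Mir107 held 99.07% of the 3556 family counts in animal 1 (exact interval 98.70 to 99.36%) and 99.09% of the 6012 family counts in animal 2 (98.81 to 99.31%). For each count at a Mir103 copy there were 106.8 counts at Mir107 in animal 1 and 108.3 in animal 2. These shares differed by less than their counting intervals, while the family as a whole made up 0.0805% of miRNA gene counts in animal 1 (0.0779 to 0.0832%) and 0.264% in animal 2 (0.257 to 0.270%). Within the copies, Mir103-1 supplied 3.03% of 33 counts in animal 1 (0.0767 to 15.8%) and 18.2% of 55 counts in animal 2 (9.08 to 30.9%). These last intervals overlap in part, each estimate lies outside the other animal's interval, and the difference, which rests on 1 and 10 counts at Mir103-1, was not tested.

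All 3 genes were lower in animal 1. Differences were expressed as the log2 ratio of CPM + 1, animal 1 over animal 2, and a gene was called outside counting error when the exact 95% interval of animal 1's share of both counts excluded the share given by the library totals. Mir107 had a log2 ratio of -1.71. Without the added 1 its ratio was 0.305 (exact interval 0.293 to 0.318), which is 3.28-fold higher in animal 2. Mir103-2 had a log2 ratio of -1.33 and a ratio of 0.367 (0.226 to 0.591), an interval that includes the ratio of Mir107. Mir103-1 had a log2 ratio of -2.13, which rests on 1 count against 10, and its ratio of 0.0516 had a counting interval of 0.00119 to 0.363.

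Both detected members were outside counting error and higher in animal 2, a call shared by 29.6% of the 415 genes detected in both libraries. A log2 ratio below -1 was likewise seen in both, against 6.51% of detected genes. Among the 200 detected genes averaging 100 CPM or more, which include Mir107 but not the copies, 92 (46%) were outside counting error and higher in animal 2, and 15 (7.5%) had a log2 ratio below -1. Mir107's place among the largest differences between the animals was known when the genes were chosen, so these figures describe it and test nothing. The interval compares 2 libraries, not 2 conditions. The median log2 ratio over detected genes was near 0, at -0.0029, with a median size of 0.32. Only 7 detected genes had a lower log2 ratio than Mir107, and 14 had a lower one than Mir103-2.

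**Figure D3:**
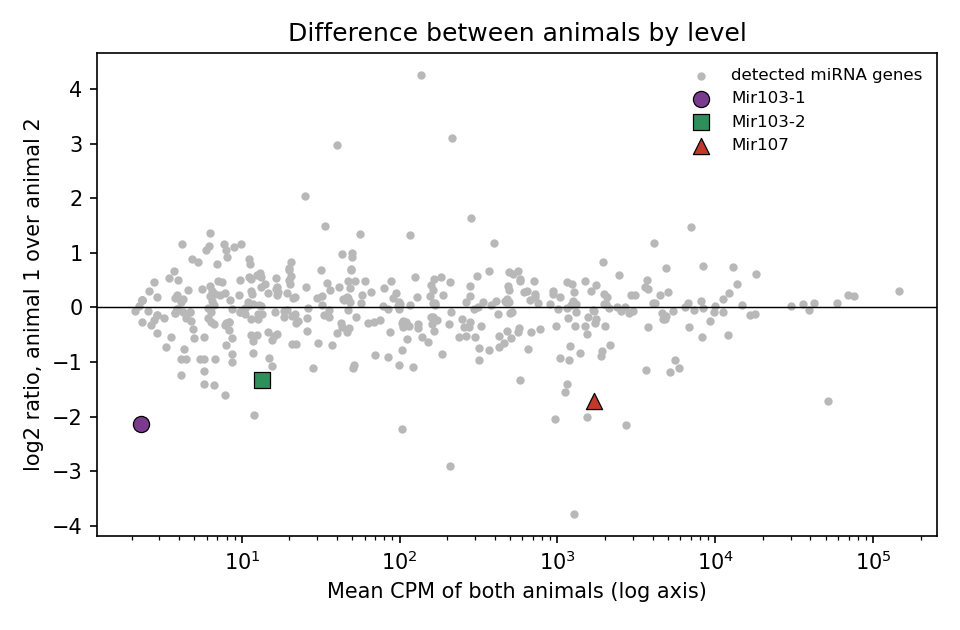
log2 ratio of CPM + 1, animal 1 over animal 2 (y axis), against the mean CPM of both animals (x axis, log scale), for the 415 detected miRNA genes in grey and the 3 miR-103 and miR-107 genes as coloured symbols. The members lie at -2.13, -1.33 and -1.71, below most genes of their level; Mir103-1 was not among the detected genes.

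Other features of the libraries moved with this difference, and their part in it was not tested. The unmapped share of reads was 23.4% in animal 1 and 47.1% in animal 2, while 42.6% and 42.5% of mapped reads were counted at miRNA genes. Among cell type markers, to be read against shares over detected genes of 27% (animal 1 higher) and 29.6% (animal 2 higher), the oligodendrocyte list had 2 of 3 genes higher in animal 2 (summed level 1642 CPM in animal 1, 3461 CPM in animal 2) and the astrocyte list 2 of 2 (8788 and 11574 CPM). The microglia and leukocyte list had 3 of 4 (1760 and 2313 CPM), and the endothelial and smooth muscle list 3 of 3 (11469 and 15155 CPM). All genes of the astrocyte list and of the endothelial and smooth muscle list averaged 100 CPM or more. Among detected genes at that level, 46% were higher in animal 2. The erythroid list had 2 of 3 genes higher in animal 1, with a summed level of 459 CPM in animal 1 against 91.2 CPM in animal 2. The neuron list had 7 of 11 genes detected, 4 of them higher in animal 1 and 2 higher in animal 2. It summed to 52254 and 99321 CPM, of which Mir132 gave 24389 and 79576 CPM. Its undetected genes were Mir124a-1, Mir124a-2, Mir124a-3 and Mir9-2, which are numbered copies, as are the detected Mir9-1 and Mir9-3. Any part of reads fitting several copies in this was not tested. The striated muscle list had 1 of 6 genes detected, Mir206, and 4 at 0 counts in both animals, and the liver marker Mir122 reached 60.9 CPM in animal 1 against 36.8 CPM in animal 2. The miRNAs cannot be placed in a cell type from whole cortex, where more cells of a type and more RNA per cell cannot be told apart.

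The genes whose ratio between animals was nearest to that of Mir107, among genes averaging at least 100 CPM, were Mir132, Mir455, Mir298, Mir219a-2 and Mir21a. Mir132, an activity-induced neuronal miRNA, lay 0.0044 away on the log2 scale, at 24389 CPM in animal 1 against 79576 CPM in animal 2. Mir219a-2, an oligodendrocyte miRNA, had 634 and 1667 CPM. Mir21a, which rises in reactive glia, had 376 and 1562 CPM. The likeness rests on 2 libraries. Nearest to Mir107 in mean log2(CPM + 1) were Mir337, Mir150, Mir154, Mir181b-2 and Mir338, whose own log2 ratios ran from -0.84 to 0.49. Each of these genes at a like level had a ratio closer to 0 than that of Mir107, which was chosen partly for its difference.

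miR-103 and miR-107 belong to a wider group of miRNAs with the hexamer AGCAGC near the 5′ end, which includes miR-15, miR-16, miR-195, miR-322, miR-497 and miR-503. In these the hexamer begins at base 2, against base 1 in miR-103 and miR-107, so their seed is displaced by a base. Of 12 listed relatives, 8 were detected and 4 had 0 counts in both animals. Among those 4, Mir497b and Mir1907 were not found when RefSeq mature strands were searched for the hexamer in their first 8 bases. Beyond counting error, animal 1 was higher for 3 of the detected relatives and animal 2 for 2, and 3 lay inside it. Over detected genes these shares were 27% and 29.6%. With TMM scaling the counts were 4, 2 and 2, as Mir322 joined those higher in animal 1.

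The relatives went in both directions. Mir15a had 273 CPM in animal 1 against 469 CPM in animal 2, and Mir15b, a growth-restraining miRNA like its paralog, had 133 and 241 CPM. These 2 went the way of Mir107, with log2 ratios of -0.78 and -0.85. Mir195a had 1038 and 846 CPM, and Mir497, from the same cluster, had 831 and 591 CPM. Mir16-1 had 314 and 240 CPM. The median log2 ratio of the 8 detected relatives was -0.079, against -1.71 for Mir107. Their ratios ran no lower than that of Mir15b.

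Mir107 changed its place among these relatives. In animal 1 it had 798 CPM, below Mir195a and Mir497. In animal 2 its 2613 CPM exceeded each relative, the next being Mir195a at 846 CPM. These places are of reads assigned to single genes. Mir16-1 and Mir16-2 share a mature strand, so their counts are uncertain as levels of miR-16, as those of the Mir103 copies are for miR-103. The summed level of the 12 relatives was 3015 CPM in animal 1 against 2807 CPM in animal 2, and that of the 3 miR-103 and miR-107 genes 805 and 2637 CPM. Most of the family's gap therefore lay at Mir107.

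**Figure D4:**
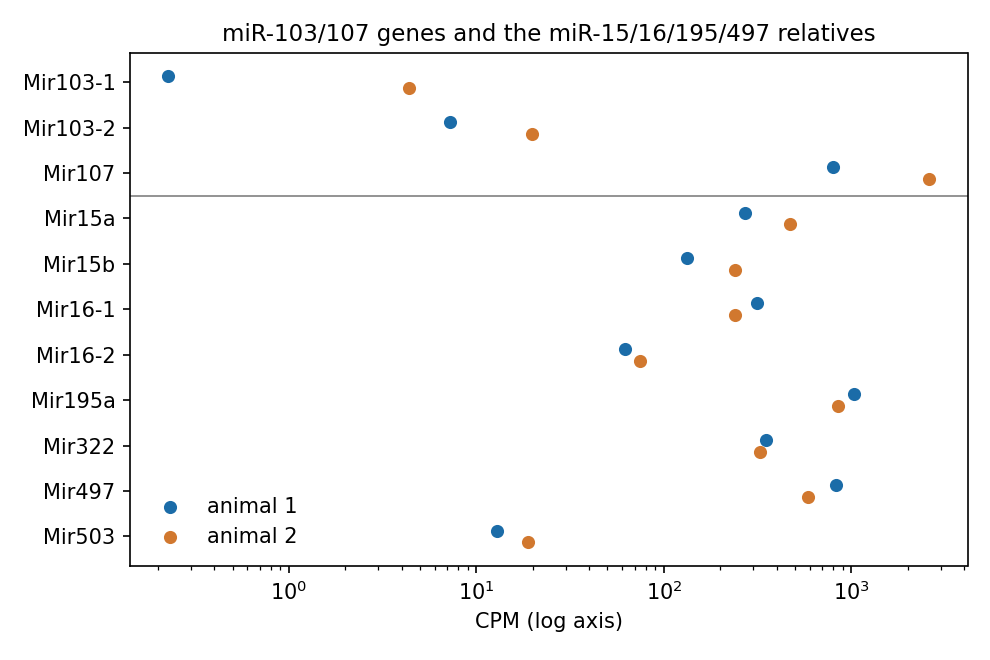
Level in CPM (x axis, log scale) of the 3 miR-103 and miR-107 genes, above the line, and of the 8 detected relatives with the AGCAGC hexamer, below it, in animal 1 and animal 2. All 3 members have the animal 2 point to the right, while Mir16-1, Mir195a, Mir322 and Mir497 have it to the left.

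A list of miRNAs studied in insulin and lipid metabolism placed Mir107 beside others with such roles. Of 13 genes, 11 were detected. Beyond counting error, 3 were higher in animal 1 and 7 in animal 2, with 1 inside it, and the same counts were found with TMM scaling. Over detected genes the shares were 27% (animal 1 higher) and 29.6% (animal 2 higher). Among genes averaging 100 CPM or more, as most detected genes of the list do, 46% were higher in animal 2. Mir27b, which acts on fat cell and lipid genes, had 803 CPM in animal 1 against 1560 CPM in animal 2. Mir34a, a p53-induced miRNA, had 1313 and 2433 CPM. Mir378a, in an intron of the metabolic coactivator gene Ppargc1b, had 4217 and 3325 CPM and went the other way. Mir33, in an intron of the sterol regulator gene Srebf2, had 19.7 and 21.9 CPM, inside counting error. Mir29b-1 had the lowest log2 ratio of the list, -1.11, and the median over its detected genes was -0.25. Mir107 was farther from 0 than each detected gene of this list. As it was chosen partly for its difference between the animals, that describes it and tests nothing.

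Each of the 3 miRNA genes lies in an intron of its host. Positions are on mm10 with GENCODE M21. Mir103-1 lies on the plus strand of chromosome 11, in intron 5 of Pank3, 688 bases after the upstream exon in an intron of 1740 bases. Mir103-2 lies on the plus strand of chromosome 2, in intron 5 of the 7-exon protein-coding transcript of Pank2, 454 bases after the upstream exon in an intron of 5801 bases. In the 4-exon protein-coding transcript of Pank2 it lies in intron 2, 13788 bases after the upstream exon in an intron of 19135 bases. Mir107 lies on the minus strand of chromosome 19, in intron 5 of both 7-exon protein-coding transcripts of Pank1, 326 bases after the upstream exon in an intron of 7282 bases. The same interval is intron 4 of the 6-exon protein-coding transcript of Pank1. Each is on its host's strand, and no other annotated gene overlaps it. The nearest other miRNA gene was 165471 bases from Mir103-1, 247654 bases from Mir103-2 and 70074 bases from Mir107. Counts on the opposite strand were 0 at each member in both animals, and the unstranded counts equalled those on the read strand. Messenger RNA was not measured, so the levels of the hosts are not known here.

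Mir103 was one of 53 miRNAs with numbered copies in the tables, and in 39 of these the copies were found to share at least 1 mature strand in RefSeq. Families with a copy whose symbol had no RefSeq mature strand were counted as not sharing, so 39 is a lower bound. For 23 of the 53, each copy had counts. The copy of Mir103 with more counts, Mir103-2, had a 5.85-fold higher mean CPM than Mir103-1, which is 2.31 CPM and 11 counts in all. The ratio was larger in 6 of these 23 families and smaller in 16. It depended on the library, at 32.0 in animal 1 (exact 95% interval 5.35 to 1303, on 1 count of Mir103-1) and 4.50 in animal 2 (2.24 to 10.01). In animal 1 alone 3 families had a larger ratio, and in animal 2 alone 8 did. Among 14 families with a copy at 100 CPM or more, the ratio ran from 1.47 for Mirlet7a to 169 for Mir219a. Mir103 summed over copies had 7.47 CPM in animal 1 against 24.1 CPM in animal 2, place 21 of the 53. A copy ratio far from 1 was thus found in other families too, and the treatment of reads fitting both copies is again not stated.

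**Figure D5:**
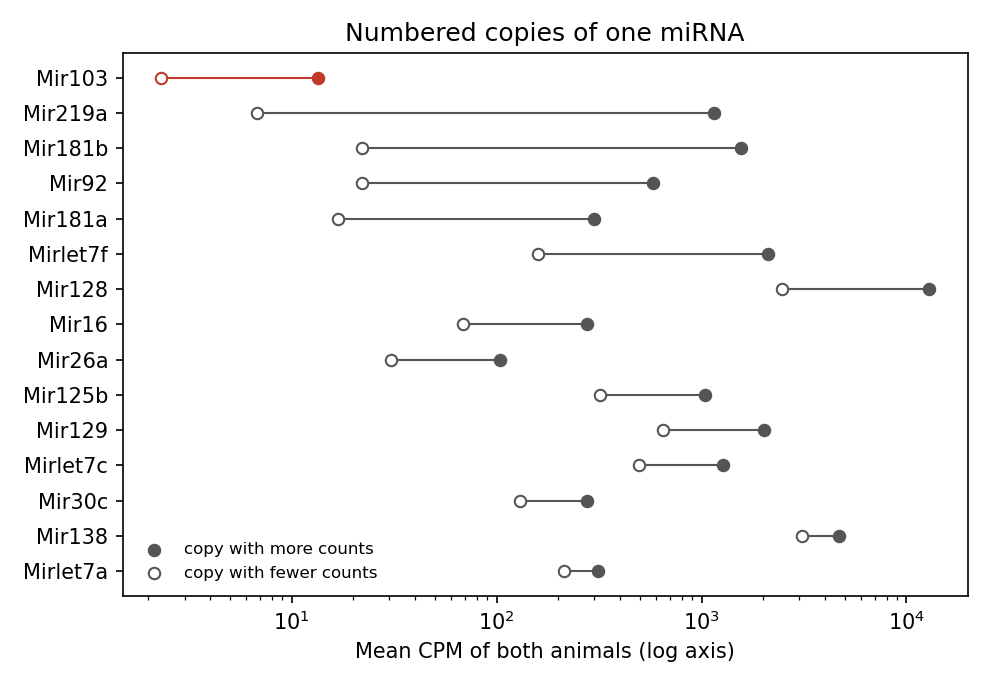
Mean CPM of both animals (x axis, log scale) of the copy with more counts (filled) and the copy with fewer counts (open) of miRNAs with numbered copies, for Mir103 in red and, in grey, the 14 families with a copy at 100 CPM or more, ordered by the ratio between copies. The Mir103 copies lie at 13.5 and 2.31 CPM. Mir103-2 lies below the higher copy of each grey family by construction, as these were chosen for a copy at 100 CPM or more. Mir103-1 lies below the lower copy of each grey family.

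The base that separates miR-107 from miR-103 lies close to the 3′ end. Among mature strands in RefSeq from genes of the tables, 22 pairs of equal length differed at a single base. The pair miR-107-3p and miR-103-3p was the 1 pair whose difference lay in the last 2 bases, at position 22 of 23. In other pairs the difference lay farther from the 3′ end, such as position 16 in miR-99a-5p and miR-100-5p, or position 10 in miR-29a-3p and miR-29c-3p. How many such reads these libraries held was not measured, as the tables give no read lengths.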

How the data were processed

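Small RNA was measured in 2 libraries of left cerebral cortex, 1 per female mouse. The authors deposited raw counts of reads per miRNA gene on mm10 with GENCODE M21, per the deposited text metadata. Aligner and read filters: not given in the sources used here. The tables have 3 unlabelled count columns; the strand-assigned column with the larger sum was used. The first 4 entries name no gene and were left out of totals; multiply mapping reads were 48.9% (animal 1) and 48.2% (animal 2) of those mapped. Totals were 4415759 and 2279562 counts, at which 3 counts correspond to 0.679 and 1.32 CPM.

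CPM was the count over the sum of gene counts times 1000000, and ratios used log2(CPM + 1). Detection needed 2 CPM in both libraries. Shares and ratios have exact Clopper-Pearson 95% intervals from scipy 1.17.1. With 1 group there was no contrast to test, and no p-value is given. The counting call was tested on simulated data. The 2202 identifiers all matched GENCODE; 968 symbols matched RefSeq's GRCm38.p6 miRNA table, 965 of them at the same coordinates. Alternatives used TMM factors from edgeR 4.0.16, DESeq2 1.42.0 size factors, all mapped reads as the total, the total without the most abundant gene, the unstranded column, pseudocounts of 0.1 and 5 CPM, other filters and leaving out either library. The members and lists were chosen with earlier results of these data known. Genes named were the 3 members, list genes, the 5 genes nearest Mir107 in ratio and the 5 nearest in level. The copy families with the largest and smallest ratio, among those with a copy at 100 CPM or more, were named too. Chosen after their values were seen were Mir206, as the 1 detected muscle marker, Mir99a, Mir100, Mir204, Mir211 and Mir219b. So were the undetected neuron genes, with Mir9-1 and Mir9-3.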

Additional observations from a re-analysis of the deposited data

Results flagged for a closer look

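Reads outside the gene counts were the one signal that stood out. Of the mapped reads, 48.9% in animal 1 and 48.2% in animal 2 had several mapping places, a larger share than the 42.6% and 42.5% counted at miRNA genes. The tables do not say from which miRNAs these reads came, so how many derive from miR-103 or miR-107 is not known.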

How the results depend on the processing

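Of 57 recomputed levels, log2 ratios, family shares and counts of genes outside counting error, 55 stayed within 1 SD of the 2 libraries, the exact counting interval of the ratio or 1.5 times the count, and no log2 ratio of a member changed sign. The other 2 were log2 ratios of Mir103-1, at -1.39 with all mapped reads as the total and -0.84 with a pseudocount of 5 CPM, against -2.13. For Mir107 the log2 ratio, animal 1 over animal 2, ran from -1.71 to -1.66 over 8 settings, and for Mir103-2 from -1.43 to -1.01. For Mir103-1, with 11 counts in all, it was -3.78 with a pseudocount of 0.1 CPM. The number of genes outside counting error was 235, of which 112 were higher in animal 1 and 123 in animal 2; with TMM scaling the balance turned, to 123 and 116. Taking all mapped reads as the total lowers every level by construction, for Mir107 to a mean of 725 CPM, still within its wide SD of 1284 CPM. For Mir103-1 the SD of 2.94 CPM exceeded the mean of 2.31 CPM, so no fall in its level could have counted as moved. Leaving out a library leaves the other animal's value, 798 or 2613 CPM for Mir107. With 2 libraries that value always lies within 1 SD of the mean, so those levels and shares could not have moved. Family shares on the unstranded column were fixed as well, because its counts equalled those on the read strand. No paired analysis was possible because there is 1 group. Depth limits Mir103-1 most, as it lies below the floor of 3 counts in animal 1.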

Other observations

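Other miRNAs that differ at a single base can be set beside miR-107. Mir99a had a mean of 14709 CPM over both animals and Mir100, which differs at position 16, had 4462 CPM. Mir29a had 9212 CPM and Mir29c, which differs at position 10, had 458 CPM. Mir204, a choroid plexus miRNA, had 566 CPM and Mir211, which differs at position 17, had 4.43 CPM. Mir107 had 1706 CPM and the better counted of the miR-103 genes, Mir103-2, had 13.5 CPM. A miR-103-3p read fits both copies until it reaches 25 bases, so the value at Mir103-2 is uncertain as a level of miR-103. Across miRNA genes with mature strands in RefSeq, 860 had no strand held by another hairpin, and 306 of these (35.6%) were detected. Of 54 genes with some but not all strands held whole by another hairpin, which include both Mir103 copies, 36 (66.7%) were detected, with medians over all 54 of 26.5 CPM (animal 1) and 29.6 CPM (animal 2). Of 38 genes with every strand held by another hairpin, 7 (18.4%) were detected, and the medians were 0 CPM in both animals. Medians over the 860 genes with no shared strand were 0.679 CPM (animal 1) and 0.439 CPM (animal 2). The classes were not matched for which miRNAs they hold, so any part of sharing in detection was not tested. Mir107 and Mir219b were the 2 genes with no strand held whole elsewhere but with the first 20 bases of a strand so held. For Mir107 this was the 3p strand only.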
